A study of Mus musculus with 2 samples.

Results

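The autosomes of the mouse (mm10, chromosomes 1 to 19) were divided into tiles of 500 kb from position 0, and the tiles between the first and last protein-coding gene of each chromosome were searched for accessible sites. Of 4774 such tiles, 18 held no site, which is 0.377% of them and 9 Mb in all. A site is an interval of the deposited peak list, placed in a tile by its midpoint, so the tiles were chosen by the list itself and their lack of sites is a description with no test. The 18 tiles formed 15 runs: 1 run of 3 adjacent tiles, 1 run of 2 and 13 single tiles. They held 104 protein-coding genes, and 63 of these encoded receptors of the olfactory, vomeronasal or formyl peptide families. The receptor count depended on where the grid starts: tiles shifted by 250 kb held 19 olfactory, 3 type 1 and 10 type 2 vomeronasal receptors among 87 genes, against 44, 6 and 11 among the 104 here.

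The sites came from ATAC-seq, in which the Tn5 transposase cuts accessible chromatin and tags the cut ends for sequencing. FACS was used to collect the cells that carried GFP from C57/Bl6 embryos with the Hb9::GFP transgene, at embryonic day 10.5. They are called spinal motor neurons in the labels, which describe 1 group of 2 replicates and no other genotype or treatment. GFP here is driven by Hb9, an older name of the motor neuron gene Mnx1, so the sort takes the cells in which that transgene is on. Whether separate litters were used for the replicates is not stated in the labels, and both were pooled into 1 peak list, so no value below has a replicate error.

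Olfactory receptor genes are the largest gene family of the mouse and lie in clusters on many chromosomes. Each olfactory sensory neuron of the nose expresses 1 allele of 1 such gene, while the others are held in repressive heterochromatin. Vomeronasal receptors of types 1 and 2 detect pheromones in the vomeronasal organ, and several formyl peptide receptors are expressed there too. Prame-like genes, androgen-binding proteins of saliva and the pregnancy-specific glycoproteins are further families that expanded by local duplication in rodents.

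The promoter windows of 7 genes inside the siteless tiles are shown for how few CpG dinucleotides they hold, and that of Zik1 for comparison. They are first or last members of a family in the siteless tile that holds most of its genes inside, and 1 gene of no fixed family. Zik1, a zinc finger gene, lies on chromosome 7 in a tile with a single site, and that site covers its window. Each window runs from 250 bases before to 50 bases after the start of the gene model, read 5′ to 3′ on the gene's strand, from RefSeq on GRCm38.p6. CpG dinucleotides are in capitals. The positions are chr2:88525251-88525550 (plus strand) for Olfr1186, chr2:88988151-88988450 (minus) for Olfr1214, chr17:20048156-20048455 (minus) for Vmn2r104, chr7:11670470-11670769 (minus) for Vmn1r72, chr5:94070496-94070795 (minus) for Pramel37, chr7:33056503-33056802 (minus) for Scgb2b17, chr9:36475333-36475632 (plus) for Pate11 and chr7:10495332-10495631 (minus) for Zik1.
Olfr1186: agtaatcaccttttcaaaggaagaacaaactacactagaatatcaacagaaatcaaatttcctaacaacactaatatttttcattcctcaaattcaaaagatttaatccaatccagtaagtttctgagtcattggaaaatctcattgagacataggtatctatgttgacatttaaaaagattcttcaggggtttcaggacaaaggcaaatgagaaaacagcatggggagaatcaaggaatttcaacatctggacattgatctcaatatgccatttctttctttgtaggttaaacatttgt
Olfr1214: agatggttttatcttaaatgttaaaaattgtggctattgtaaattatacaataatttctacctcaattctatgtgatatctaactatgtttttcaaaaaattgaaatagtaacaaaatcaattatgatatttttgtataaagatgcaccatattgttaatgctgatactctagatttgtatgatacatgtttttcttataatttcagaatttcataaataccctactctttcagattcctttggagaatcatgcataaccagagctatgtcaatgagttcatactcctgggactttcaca
Vmn2r104: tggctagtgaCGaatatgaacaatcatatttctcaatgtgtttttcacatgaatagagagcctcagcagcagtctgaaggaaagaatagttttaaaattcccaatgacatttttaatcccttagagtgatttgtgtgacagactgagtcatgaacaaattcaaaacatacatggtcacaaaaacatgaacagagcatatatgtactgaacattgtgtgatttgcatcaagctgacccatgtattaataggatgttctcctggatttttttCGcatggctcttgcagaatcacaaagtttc
Vmn1r72: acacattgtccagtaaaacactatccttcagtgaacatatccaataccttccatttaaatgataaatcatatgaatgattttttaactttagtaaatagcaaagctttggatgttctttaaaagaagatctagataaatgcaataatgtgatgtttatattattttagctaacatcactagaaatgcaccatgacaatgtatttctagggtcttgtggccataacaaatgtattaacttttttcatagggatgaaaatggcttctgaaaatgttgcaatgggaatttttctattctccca
Pramel37: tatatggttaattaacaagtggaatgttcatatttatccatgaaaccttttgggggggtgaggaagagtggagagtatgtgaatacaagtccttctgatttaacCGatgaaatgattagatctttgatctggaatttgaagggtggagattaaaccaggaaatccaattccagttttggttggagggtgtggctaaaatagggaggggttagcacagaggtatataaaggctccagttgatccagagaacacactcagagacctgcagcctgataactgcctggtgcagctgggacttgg
Scgb2b17: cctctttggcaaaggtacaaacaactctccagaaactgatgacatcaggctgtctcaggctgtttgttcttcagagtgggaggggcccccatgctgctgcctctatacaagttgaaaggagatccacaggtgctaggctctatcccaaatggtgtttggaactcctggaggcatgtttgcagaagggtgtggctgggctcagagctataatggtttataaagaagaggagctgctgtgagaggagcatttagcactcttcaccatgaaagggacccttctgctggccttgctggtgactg
Pate11: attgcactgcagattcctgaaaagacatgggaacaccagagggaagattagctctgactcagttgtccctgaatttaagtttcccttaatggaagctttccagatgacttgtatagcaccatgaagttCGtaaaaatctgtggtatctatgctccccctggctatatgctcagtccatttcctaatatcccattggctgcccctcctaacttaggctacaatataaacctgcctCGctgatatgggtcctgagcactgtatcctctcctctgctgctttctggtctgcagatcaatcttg
Zik1: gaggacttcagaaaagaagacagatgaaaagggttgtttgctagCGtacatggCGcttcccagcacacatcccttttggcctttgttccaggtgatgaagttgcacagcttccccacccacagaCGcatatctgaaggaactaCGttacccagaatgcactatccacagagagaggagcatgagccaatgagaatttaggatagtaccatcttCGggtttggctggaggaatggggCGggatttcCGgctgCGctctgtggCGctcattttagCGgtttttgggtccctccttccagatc
Olfr1186, Olfr1214, Vmn1r72 and Scgb2b17 had no CpG in these 300 bases, Pramel37 had 1, and Vmn2r104 and Pate11 had 2 each. Zik1 had 10. The models of many receptor genes are little longer than a coding sequence, with a median of 951 bp for olfactory receptors. For such genes the window may lie before the coding part rather than at a mapped transcription start.

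The pooled list held 138387 entries in 104069 intervals, of which 101258 lay on chromosomes 1 to 19, with a median width of 379 bp. The total depth of the libraries is not known. The reads piled up at each summit were recovered from the authors' fold and p-value, and the smallest entry had 11 reads over a background of 5.37 reads. The background differed between sites, and the filter on the list is not given in the sources used here. A tile without a site is therefore a tile with no entry in the filtered list, not one shown to be closed. Assembly gaps and the share of each tile in which reads can be placed were not checked, in the gene-poor tiles or the others. Of all protein-coding genes on chromosomes 1 to 19, 67.5% had a summit within 1 kb of a gene end. Of 7 motor neuron markers, 6 had one. Mnx1 had a 7.42-fold site with 406 reads and Isl1 a 10.9-fold site with 244 reads, while Isl2 had none. All 5 general neuronal markers had one, against 1 of 6 for blood and microglia (Spi1), 2 of 4 for endothelium, 3 of 4 for muscle and 0 of 3 for keratinocytes. Of 5 genes of olfactory sensory neurons, the signalling genes Gnal, Adcy3 and Gng13 had a gene-end site. Omp, the olfactory marker protein, and Cnga2, the olfactory cyclic-nucleotide-gated channel, had none.

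Siteless tiles lay at the far low end of a broad distribution. A tile held a median of 19 sites, with 4 at the 5th percentile, 44 at the 95th and 102 at the highest. Tiles just outside the rule were also few but outnumbered the 18: of 4774 tiles, 46 held 1 site, 70 held 2 and 68 held 3. No interval reached into a siteless tile from outside, so placing sites by overlap or by summit gave the same 18 tiles. Chromosome 7 held 5 of the 15 runs and chromosome 17 held 2. Chromosomes 1, 2, 5, 9, 11, 13, 15 and 18 held 1 each.

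The siteless tiles were not short of genes. They held a median of 4.5 protein-coding genes, against 2 in tiles with a site, and 104 in all, which is 0.506% of the 20558 protein-coding genes on these chromosomes. Named families accounted for 84 of the 104, or 80.8%, against 16.4% of all protein-coding genes. The genes were short, with a median of 1977 bp (range 897 to 60692 bp), against 17676 bp for genes elsewhere. Olfactory receptors made up 44 of them (3.99% of that family), type 2 vomeronasal receptors 11 (9.02%) and type 1 vomeronasal receptors 6 (2.62%). Prame-like genes made up 8 (16.3% of that family) and androgen-binding proteins 8 (22.9%). Ceacam genes made up 3 (10.7% of pregnancy glycoproteins and Ceacam genes) and formyl peptide receptors 2 (28.6%). The zinc finger gene Zfp735 (0.239% of its family) and Esp36, an exocrine gland peptide (6.67%), were the only members of their families inside. A further 14 were predicted genes, 1 was a RIKEN clone and 5 belonged to no fixed family: Pudp, Pate11, Pate12, AA792892 and LOC115488129. The nearest site lay a median of 309 kb from these genes, with a range of 55.2 to 775 kb. Such distances follow from the choice of tiles without a site. Of genes elsewhere, which were longer, 77.6% had a site within their span, a value given for scale only.

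**Figure D1:**
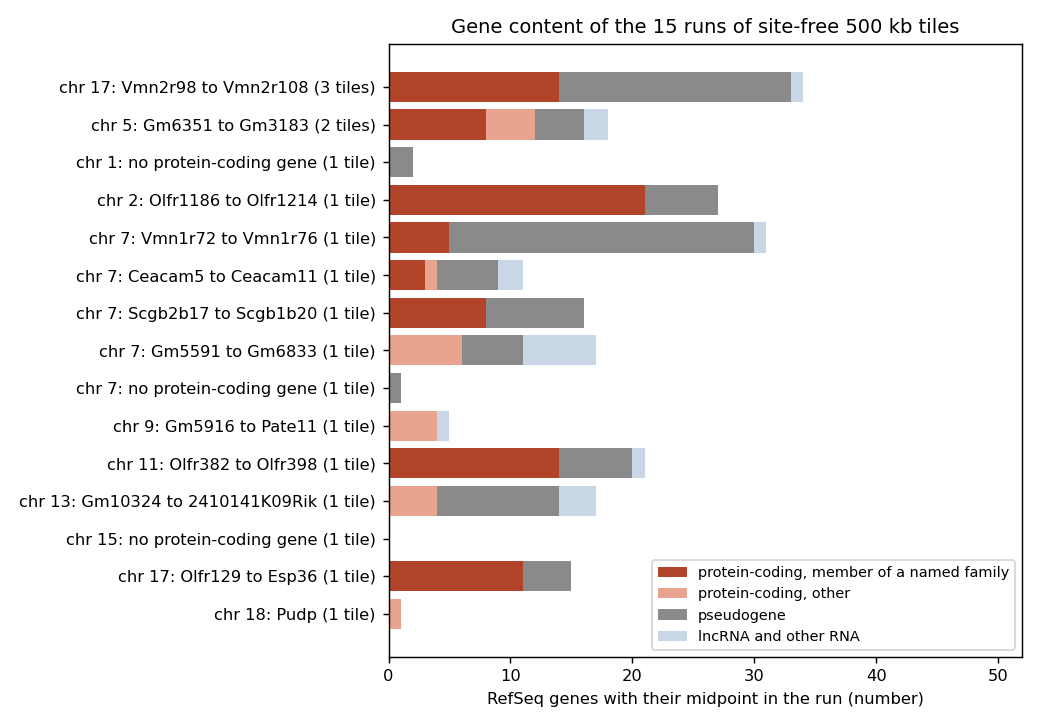
Number of RefSeq genes (horizontal axis) with their midpoint in each of the 15 runs, stacked by type, with the first and last protein-coding gene of the run as its name. The 3-tile run on chromosome 17 held 14 protein-coding genes and 19 pseudogenes, the chromosome 2 tile held 21 olfactory receptors, and the chromosome 15 tile held no gene of any type.

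Pseudogenes were frequent inside. They made up 43.98% of all genes in siteless tiles (95 of 216) against 19.9% in tiles with 1 or more sites, and there were 0.914 of them per protein-coding gene against 0.451. Tiles with exactly 1 site had 1.18, so the high share was shared with the tiles just outside the rule. Long noncoding RNAs were few: 9 in all, or 4.17% of genes, against 26.6% in tiles with a site. The share was also low, at 5.03%, in tiles with exactly 1 site. Of 315 olfactory receptor pseudogenes, 11 lay inside, as did 12 of 137 of type 1 and 12 of 128 of type 2 vomeronasal receptors. Over pseudogenes of every kind, 95 lay inside and 9152 in tiles with 1 or more sites.

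By gene content the runs were sorted into 3 kinds after their values were seen: 5 runs of chemosensory receptor clusters (7 tiles, 65 protein-coding genes), 6 runs of other gene clusters (7 tiles, 38 genes) and 4 gene-poor runs (4 tiles, 1 gene). The stretch between the 2 sites that flank a run was 701 to 1630 kb long in the receptor clusters, with a median of 942 kb. It was 553 to 1602 kb in the other clusters, with a median of 957 kb, and 569 to 861 kb in the gene-poor runs, with a median of 688 kb. The ranges of the 3 kinds overlapped.

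The longest run was the type 2 vomeronasal receptor cluster of chromosome 17, from 19 to 20.5 Mb. It held 11 protein-coding members from Vmn2r98 to Vmn2r108, the formyl peptide receptors Fpr-rs6 and Fpr-rs7 and the type 1 receptor Vmn1r224. Its 19 pseudogenes included 9 of type 2 and 5 of type 1 receptors. No site was listed between positions 18998327 and 20628419, a stretch of 1630 kb. Vmn2r103 lay 775 kb from the nearest site and Vmn2r104 (chr17:20029425-20048205) 580 kb, whereas Vmn2r98 lay 55.2 kb from one and Vmn2r108 147 kb. The genes in the middle of the run were the farthest from any site, which follows from sites lying only at the ends of the stretch.

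The sites that ended this run were strong. The left one was 21.5-fold with 136 reads, 50.04 kb from Vmn2r97, and the right one was 11.3-fold with 71 reads, 3.69 kb from Fpr-rs3. By q-value, the most significant sites within 2.5 Mb were 15.03-fold with 176 reads on the left, inside Gm5165, and 44.2-fold on the right, 15.5 kb from Zfp946, a zinc finger gene. The tiles directly beside the run held 2 and 5 sites.

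The chromosome 2 tile from 88.5 to 89 Mb held the most protein-coding genes of the siteless tiles, 21, and all were olfactory receptors, from Olfr1186 to Olfr1214. Another 6 genes in it were pseudogenes. Distances to the nearest site ran from 69.3 kb for Olfr1214 (chr2:88987265-88988200) to 344 kb for Olfr1196, with 169 kb for Olfr1186 (chr2:88525501-88526590) and 262 kb for Olfr1201 in the middle of the tile. Most of the 21 models were about 1 kb long, and Olfr1213 was the longest at 7.31 kb. The flanking sites were weak, at 3.61-fold with 22 reads on the left and 2.36-fold with 14 reads on the right.

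A pair of further tiles were filled mainly with olfactory receptors. The chromosome 11 tile from 73.5 Mb held 13, from Olfr382 to Olfr398 with Olfr23 among them, and Zfp735, which lay 407 kb from the nearest site. Olfr389 was the farthest from a site there, at 443 kb, and Olfr382 the closest, at 234 kb. The right flanking site of this tile was the strongest of all first flanking sites, at 44.3-fold, 17 kb from Olfr43. The chromosome 17 tile from 38 Mb held Olfr129 to Olfr138, 10 genes in all, and Esp36. Distances to a site ran from 99.2 kb for Olfr129 to 380 kb for Olfr136.

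The tile of type 1 vomeronasal receptors, on chromosome 7 from 11.5 Mb, held 5 receptor genes, Vmn1r72 to Vmn1r76, and 25 pseudogenes, the most of any siteless tile. Vmn1r72 (chr7:11669599-11670519) lay 340 kb from a site and Vmn1r76, at the other end, 79.1 kb. Each of the 5 models was under 1 kb long. Its flanking sites were 8.64-fold with 54 reads and 9.21-fold with 85 reads.

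The 2-tile run, on chromosome 5 from 94 to 95 Mb, was a Prame-like cluster. Members of this family have leucine-rich repeats, and several are expressed in germ cells and early embryos. It held 8 such genes, Pramel37 to Pramel44, 3 predicted genes and AA792892. No site was listed over 1602 kb, from 93630370 to 95232353. Pramel37 (chr5:94066454-94070545) lay 436 kb from a site and Pramel41 (chr5:94405437-94448551) 775 kb. The site at its right end was among the weakest in the list, at 1.89-fold with 11 reads, and its q-value did not pass 0.05.

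Androgen-binding proteins filled the chromosome 7 tile from 33 Mb. It held 8 genes, from Scgb2b17 to Scgb1b20, and 8 pseudogenes, and every one of these 8 gene models was under 2 kb long. Its site-free stretch of 553 kb was the shortest of all runs and only just covered the tile. Scgb2b17 (chr7:33054582-33056552) lay 105 kb from a site and Scgb2b19 223 kb. The tile from 17.5 Mb on the same chromosome held Ceacam5, Ceacam14, Ceacam11 and Gm5155, in a site-free stretch of 1078 kb. Ceacam5 (chr7:17713216-17761121) lay 388 kb from a site and Ceacam11 424 kb.

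In the remaining 3 gene clusters most genes had no descriptive name, apart from the Pate genes on chromosome 9. The chromosome 7 tile from 38.5 Mb held 6 predicted genes, from Gm5591 to Gm6833, in a stretch of 1176 kb. That stretch ended in a 14.1-fold site with 167 reads at the end of the zinc finger gene Zfp939. The chromosome 13 tile from 66 Mb held Gm10324, Gm45965, LOC115488129 and 2410141K09Rik beside 10 pseudogenes, 3 of them of type 2 vomeronasal receptors. The chromosome 9 tile from 36 Mb held Gm5916, Gm3867, Pate12 and Pate11. Its site-free stretch of 836 kb also held Pate5, Pate6, Pate7, Pate9, Pate10 and Pate13, outside the tile. Pate genes encode small secreted proteins of the testis and prostate. Pate11 (chr9:36475583-36481835) lay 86.9 kb from a site and Pate12 134 kb.

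Of the 4 gene-poor runs, those on chromosomes 1, 7 and 15 lay in gaps between distant genes. On chromosome 15 the tile from 14.5 Mb held no gene of any type, within 3552 kb between the cadherin genes Cdh6 and Cdh9. Cdh6 had a 2.36-fold gene-end site and Cdh9 a 6.28-fold one. On chromosome 1 the tile from 48 Mb held 2 pseudogenes, in 3975 kb between Slc39a10, a zinc transporter, and Tmeff2, neither of which had a gene-end site. On chromosome 7 the tile from 54 Mb held 1 pseudogene, with Luzp2 335 kb to its right carrying an 8.33-fold site. On chromosome 18 the tile from 50.5 Mb held Pudp, a model of 1.04 kb that lay 137 kb from a site. Its neighbours were nearer: Fam170a (2.67-fold) 217 kb to the left of the tile and Prr16 (11.4-fold) 118 kb to the right.

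Tiles without a protein-coding gene were siteless about as often as tiles in general. Of 1082 tiles without a protein-coding gene, 3 were siteless, or 0.277%, close to the 0.377% of all tiles, and those 1082 held a median of 11 sites and up to 62. Conversely, 9 of the 1577 tiles with 5 or more protein-coding genes were siteless, although such tiles held a median of 26 sites.

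Sites were few just beside the runs and more frequent in the next tiles. The 30 tiles directly adjacent to a run held 1 to 27 sites, with a median of 5, below the median of 19 for all tiles. On the left the median was 10 in the adjacent tile and 14 in the next one, and on the right it was 4 and then 10. Even 5 tiles away, at 2.5 Mb, the medians were 12 and 8. The cluster on chromosome 17 from 38 Mb had 4 and 1 sites beside it, and the Ceacam tile 11 and 1, whereas the Pate tile had 11 and 27. The first flanking sites resembled other sites: the 30 had a median of 3.69-fold and 23 reads, and 83.3% had a q-value under 0.05. All autosomal sites had a median of 3.26-fold and 23 reads, with 80.4% under 0.05.

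**Figure D2:**
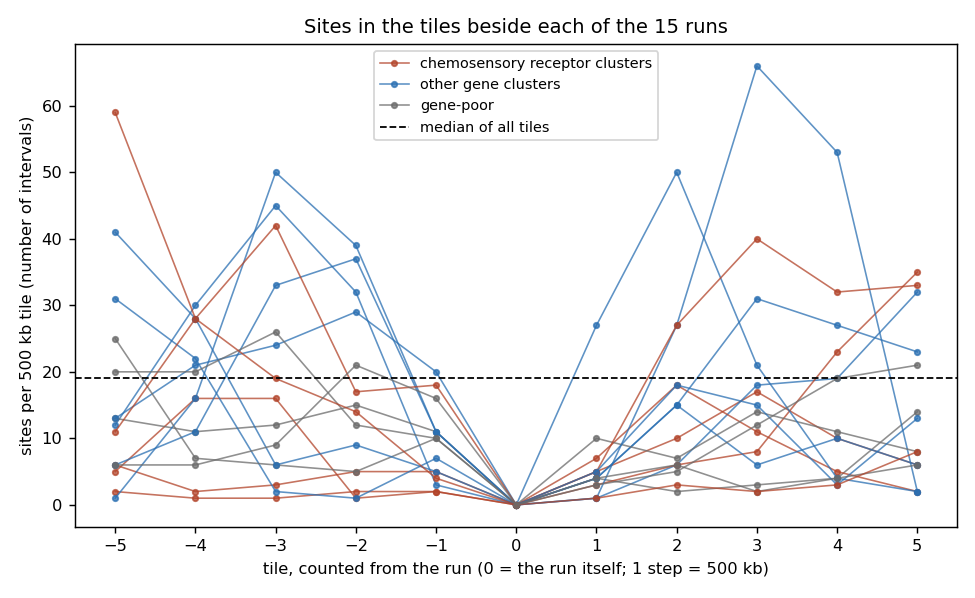
Sites per 500 kb tile (vertical axis) in the 5 tiles to either side of each run (horizontal axis, in tiles from the run, whose own value is 0), with 1 line per run coloured by kind. Most adjacent tiles lie below the dashed median of 19 sites for all tiles, and their own median is 5.

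The tiles with exactly 1 site held many of the same families but fewer genes each. These 46 tiles held 174 protein-coding genes: 73 olfactory receptors, 20 type 1 and 19 type 2 vomeronasal receptors, 7 androgen-binding proteins, 6 placental cathepsins, 5 pregnancy glycoproteins or Ceacam genes and smaller numbers of Skint, Prame-like and major urinary protein genes. Their median was 1 protein-coding gene, against 4.5 in siteless tiles, and 18 of the 46 held none, against 3 of the 18 siteless tiles. Their single sites were mostly weak, with a median of 2.75-fold and 16.5 reads (11 to 137), and 13 of the 46 did not reach a q-value under 0.05. A pair of these sites lay within 1 kb of a gene end: Zik1 at 12.9-fold with 95 reads, and Pabpc4l, a gene of the poly(A)-binding protein family, at 7.24-fold with 46 reads. Only 3 of the 46 tiles were next to a siteless tile.

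Most clusters of the same families did carry sites, but siteless tiles were more frequent among them than among all tiles (0.377%). These families were picked for having genes inside, so the higher share is a description. Over all 4774 tiles, 184 held 1 to 3 sites. Of 88 tiles with 3 or more olfactory receptors, 3 were siteless (3.41%) and 13 held 1 to 3 sites. Their median was 11 (range 0 to 47). Of 25 tiles with 3 or more type 1 vomeronasal receptors, 1 was siteless (4%), 12 held 1 to 3 sites and the median was 3. Of 20 such tiles for type 2, 2 were siteless (10%), 8 held 1 to 3 sites and the median was 3.5. Of 8 Prame-like tiles, 2 were siteless (25%) and 4 held 1 to 3 sites, with a median of 2.5. Of 7 androgen-binding protein tiles, 1 was siteless (14.3%) and 2 held 1 to 3 sites, with a median of 4. Other clustered families covered a wide range. Tiles of bitter taste receptors had a median of 4 sites, of major urinary proteins 6 and of cytochromes P450 15.5, while 41 tiles with 3 or more zinc finger genes held a median of 22 (range 2 to 102) and the 5 Hox tiles 47 to 80. No tile of these 5 families was siteless.

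**Figure D3:**
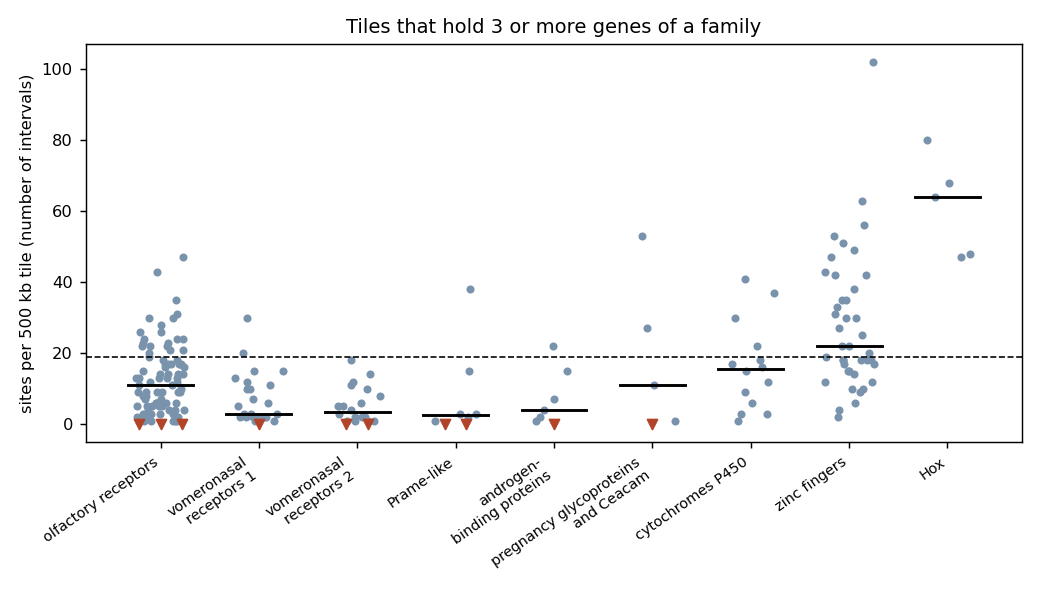
Sites per 500 kb tile (vertical axis) in tiles with 3 or more genes of a family (1 point per tile; red triangles are siteless tiles, short bars are medians, the dashed line is the median of all tiles). Vomeronasal receptor tiles have medians of 3 and 3.5 sites, olfactory receptor tiles 11, and the 5 Hox tiles lie between 47 and 80.

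Olfactory receptors outside the siteless tiles seldom had a site at a gene end. Genes outside the siteless tiles were not chosen by the rule, and there a site within 1 kb of either gene end was found at 28 of 1059 olfactory receptors (2.64%), against 67.8% of all 20454 protein-coding genes outside and 67.5% of all genes on these chromosomes. The strongest gene-end site was taken for each gene, and neighbouring genes can share one. Over the 28 genes it was weak, with a median of 2.51-fold and 15 reads. Over all genes outside with such a site, the medians were 8.17-fold and 98 reads. The share was 1 of 223 for type 1 vomeronasal receptors (0.448%), 2 of 111 for type 2 (1.80%), 1 of 41 for Prame-like genes (2.44%), 0 of 27 for androgen-binding proteins and 2 of 25 for Ceacam and pregnancy glycoproteins (8%). It was 85.8% for zinc finger genes (358 of 417), 89.4% for ribosomal proteins, 88.9% for histones and 76.1% for potassium channels. None of the last 3 families had a member in a siteless tile.

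Low CpG content was shared by the promoters inside. A promoter window was listed for 89 of the 104 genes, and these had a median of 1 CpG (0 to 7), with none in 32 of them (36.0%). The median was 14 over the 16368 windows of other genes, 22 for the 10456 of those with a site in the window and 3 for the 5912 without. Olfr1212 had the most CpG inside, 7. The GC content had a median of 35.3% inside and 56.8% elsewhere. It was lower in the receptor clusters, at 32.8%, than in the other gene clusters, at 45.3%.

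Most of the same families had CpG-poor promoters elsewhere too, and zinc fingers did not. Olfactory receptors had a median of 1 CpG both inside (39 windows) and outside (899), with GC of 32.0% and 35.3%. Over all named families with a gene inside, the 1646 windows in other tiles also had a median of 1 CpG, with a site in 321 of them (19.5%). Of those 321, 314 belonged to zinc fingers, a family with 1 gene inside, whose 346 windows elsewhere had a median of 13 CpG and 54.3% GC. Over families with 3 or more genes inside, a narrower set chosen after the values were seen, it was 6 of 1283 windows (0.468%). Those 6 were Olfr250 (4.56-fold, 28 reads), Olfr95, Olfr9, Olfr46, Olfr53 and Vmn2r29. Vmn2r29 was unlike its family, with 23 CpG and a 5.38-fold site with 73 reads. The 5 olfactory receptors had no more than 1 CpG each.

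**Figure D4:**
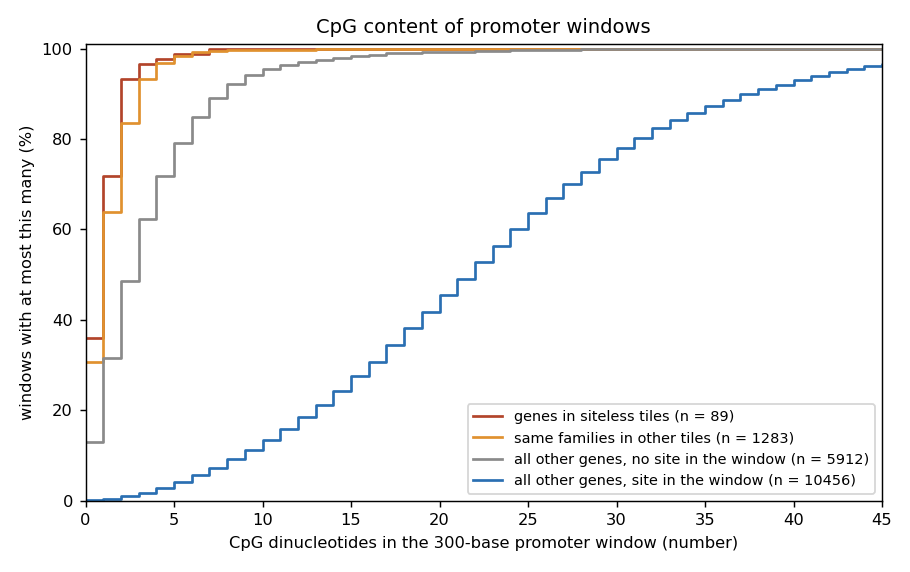
Cumulative share of promoter windows (vertical axis, percent) by number of CpG dinucleotides in the 300 bases (horizontal axis). Here "same families" are those with 3 or more genes inside, and these windows are also counted among all other genes. Windows inside siteless tiles have a median of 1 CpG, and windows of other genes that hold a site have a median of 22.

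Short motifs were counted on both strands of the windows. TATAAA was in 43 of the 89 windows inside (48.3%) and in 13.5% of all promoter windows of this length. TAATTA, the core of many homeodomain sites, was in 22.5% against 4.61%, and CCAAT in 53.9% against 39.0%. For families with 3 or more genes inside, the shares of the 3 motifs in other tiles were 39.4%, 15.4% and 42.6% in the same order. In tiles with exactly 1 site they were 33.6%, 15.1% and 50%. TATAAA and TAATTA hold only A and T, and the windows inside had a lower GC content, whose part in these shares was not tested. The core motif of Ebf factors was found in 0 of the 89 windows and in 0.966% of all.

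Repeated sequence bears on what an aligner can place, and the runs differed in it. A 75-base word, the length of the reads, was counted as shared when it stood in another promoter window on either strand. At least 1 shared word was found in 5 of 60 windows of the receptor clusters (8.33%), and no window there had 50% or more of its words shared. In the other gene clusters it was found in 22 of 29 windows (75.9%), 14 of which had 50% or more shared. These clusters were not alike. It was found in every window of the Prame-like, androgen-binding protein and chromosome 7 predicted-gene runs. In the Ceacam tile it was found in 2 of 3 windows, and in the chromosome 9 and 13 tiles in 1 of 4 each. Over all 89 the share was 30.3%, against 5.65% of other genes and 12.9% of those without a site in the window. In tiles with exactly 1 site it was 35.5%, above the siteless tiles.

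Several windows were identical to that of another gene. Scgb2b17 had the same 300 bases as Scgb2b10, Scgb1b17 as Scgb1b15, Pramel37 as Pramel50, Gm4454 as Gm9271 and Gm6833 as Gm29258. All 6 windows of the androgen-binding protein tile, all 6 of the Prame-like run and all 6 of the predicted-gene tile on chromosome 7 held shared words, with medians of 53.8%, 81.4% and 72.6% of words shared. The median identity to the nearest window of the family was 96.3% over all 6 runs of other clusters and 65.2% in the receptor clusters. In the runs just named it was 99.5%, 98.7% and 98%, in the same order. It was 75.3% in the Ceacam tile, 48.7% in the chromosome 9 tile and 51.7% in the chromosome 13 tile. Predicted genes and RIKEN clones were each counted as a family here. Pate11, Pate12 and LOC115488129 belong to no fixed family and were not compared. The chromosome 9 value therefore covers only Gm5916 and Gm3867, and the identity of the Pate windows was not measured. The closest receptor pairs were Vmn2r98 with Vmn2r97 at 94%, Fpr-rs7 with Fpr-rs6 at 91% and Vmn2r99 with Vmn2r95 at 89.7%, and the closest olfactory pair was Olfr1201 with Olfr1206 at 89%. How the authors treated reads with several placements is not given in the sources used here, and the part of repeated sequence in the lack of sites was not tested.

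**Figure D5:**
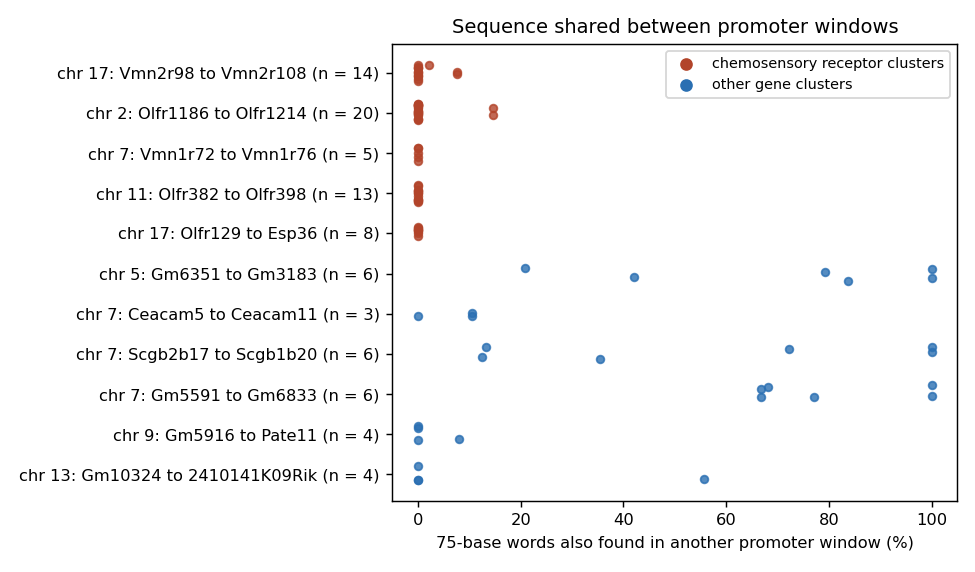
Share of the 75-base words of a promoter window that also stand in another promoter window (horizontal axis, percent), with 1 point per gene, by run (n is the number of windows). Receptor windows lie at or near 0, with 14.6% the highest, while windows of the Prame-like, androgen-binding protein and predicted-gene runs reach 100%.

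Shared words were more frequent inside than outside in some families and less frequent in others, with few windows inside for most. Type 1 vomeronasal receptors had them in 0 of 6 windows inside and 43% of 200 outside, and type 2 in 1 of 11 inside (9.09%) and 51.4% of 105 outside. Prame-like genes had them in 5 of 5 inside and 57.1% of 35 outside, and androgen-binding proteins in 6 of 6 inside and 43.5% of 23 outside. Olfactory receptors had them in 5.13% of 39 inside and 7.01% of 899 outside. Ceacam and pregnancy glycoprotein genes had them in 1 of 2 inside and 28.6% of 21 outside. Words were sought only among promoter windows, and whether reads can be placed in the tiles was not tested.

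The fixed grid hid other long stretches without a site. Wherever they started, 48 stretches of 500 kb or more lay between neighbouring sites, 33.3 Mb in all, with a median of 578 kb, and 15 of them held a siteless tile. They held 312 protein-coding genes, among them 107 olfactory receptors, 30 type 2 and 17 type 1 vomeronasal receptors, 24 Prame-like genes and 16 androgen-binding proteins. Natural killer lectin-like receptors, which no siteless tile held, had 11 members in 1 of them, at 129745733 to 130392930 on chromosome 6. The longest stretch without a siteless tile was 768 kb on chromosome 19, from 13160202 to 13928000, and held 28 olfactory receptors. Only 4 of the 48 were 1000 kb or longer, and all 4 held a siteless tile. When the tiles were shifted by 250 kb, 20 tiles in 18 runs were siteless, and 8 of the 15 runs were met again.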

How the data were processed

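ATAC-seq libraries of 2 replicates of sorted GFP-positive cells were read as paired 75-nt reads after 8 to 9 PCR cycles, per the labels' protocols. The submitters' processing notes list mm10 as the build and, as tools, MACS2 2.2.7.1, SAMtools 1.7.2, BWA 0.7.1.7, cutadapt 0.6.2 and Trim Galore. Not given in the sources used here are what each did, the filter on the list, the treatment of duplicate and multiply placed reads and any shift for the Tn5 cut. The authors deposited 1 pooled, filtered peak list. The deposited fold is a ratio, pileup over local background. Beside it the authors give −log10 of the p-value and of the q-value, and a deposited score that was not used here. The list is permissive: 17.7% of entries have a q-value of 0.05 or more.

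Entries that share an interval were counted as 1 site. Reads at a summit were solved from the Poisson tail and the ratio (pileup + 1)/(background + 1), which gave whole reads, to within 0.01, in 99.99% of solved entries. For 359 entries, too significant to solve, no reads are given. These are counts at 1 base and carry counting error. Gene positions came from RefSeq on GRCm38.p6, the patched form of the mm10 build, and a gene belongs to the tile that holds its midpoint. Of its rows, 113 for protein-coding genes carry positions that restart after the end of a chromosome. They were set aside, since none has a promoter window and they would have added 50 siteless tiles, all within the first 3 Mb of a chromosome, below the lowest site at 3000010. Promoter windows were listed for 16457 of 20558 genes and for none on chromosome 18.

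The members and the 60 gene families, fixed by symbol, were chosen with earlier results of these data known. The 3 kinds of run, the TAATTA and Ebf motifs and the narrower set of families were chosen after the values were seen. Genes were named by rule: the 10 longest runs with their families, the 30 longest genes of no family (there were 5), the first and last member of each family with 3 or more genes inside, the first, middle and last genes of the 4 fullest tiles, genes within 1 kb of a single site, and the strongest sites by q-value within 2.5 Mb of the 3 longest runs. Further genes and runs were named after their values were seen, and not every gene the rule takes is named. No test was made, since the list chose the tiles and pools both replicates. Promoters were compared with edlib 1.3.9, and identity is 100% less the edit distance per 300 bases. Tables were made with Python 3.11.15, numpy 2.4.6, pandas 2.3.3 and SciPy 1.17.1, and figures with matplotlib 3.10.9. The tiling, the solving of reads and the word search were tested on simulated data. A planned comparison of protein sequences was not run, and no motif or repeat was searched outside the promoter windows. Alternatives varied the placement of sites, the entries counted, the tiles and the gene-end window.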

Additional observations from a re-analysis of the deposited data

How the results depend on the processing

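The same 18 tiles were siteless when sites were placed by overlap or summit. The counts depended on which entries were counted and on the tiles. With entries of a q-value under 0.05 there were 34 siteless tiles in 30 runs with 158 protein-coding genes, and with the more significant 50% of the list there were 102 in 83 runs with 325 genes, 270 of them in named families. Tiles of 250 kb gave 186 siteless tiles and tiles of 1 Mb gave 2. These changes follow from fewer sites and from shorter or longer tiles. Choices made after seeing the data gave 68 tiles in 25 runs with every row of the gene table and 48 site-free stretches without a grid. Tiles shifted by 250 kb gave 20 siteless tiles with 87 genes, but 19 olfactory receptors in place of 44, 3 type 1 vomeronasal receptors in place of 6, and a longest run of 2 tiles. Olfactory receptors numbered 60 with a q-value under 0.05 and 147 with the more significant 50%. The share of olfactory receptors outside with a gene-end site was 1.98% within 500 bp, 9.07% within 5 kb and 1.7% with a q-value under 0.05, against 62.1%, 79.7% and 66.1% of all genes outside. At 5 kb it was 6.28% for type 1 and 10.8% for type 2 vomeronasal receptors and 12.2% for Prame-like genes. With 50-base words 34.8% of windows inside held a shared word. No paired analysis was possible because both replicates were pooled into 1 list, so no replicate could be left out either. The total depth is unknown, and sites under 11 reads are not in the list.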

Other observations

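The sex chromosomes, which the rule leaves out, held a larger share of siteless tiles. On the X chromosome 26 of 334 tiles held no site (7.78%), in 13 runs, with a median of 5 sites per tile. The longest X run was 8 tiles, from 27000001 to 31000000, and held 8 protein-coding genes. On the Y chromosome 108 of 179 tiles held no site (60.3%), in 35 runs, with a median of 0. The longest Y run was 11 tiles, from 69000001 to 74500000, with 22 protein-coding genes. The sex of the pooled embryos is not given in the labels, so the copy number of either chromosome in the sample is not known and its part in these counts was not tested.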
